A study of Rattus norvegicus with 6 samples.

Results

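The prostaglandin synthesis and response genes were examined in the RNA-Seq of primary rat chondrocytes as a set of 10 genes chosen by name. This choice was made with earlier results of these data known. The set held the phospholipase Pla2g4a, the cyclooxygenases Ptgs1 and Ptgs2, the prostaglandin E synthases Ptges, Ptges2 and Ptges3, the prostacyclin synthase Ptgis, the E receptors Ptger2 and Ptger4, and the degrading enzyme Hpgd. Of these, 9 were matched by gene name among the 18923 genes of the files, and Ptgis was not analysed here. The chondrocytes were wild-type cells taken by collagenase from the cartilage of newborn female Sprague-Dawley rats and used at a low passage. The CON group was kept in high-glucose DMEM with fetal bovine serum and penicillin-streptomycin for 24 h, and the RA group had 1 μM all-trans retinoic acid added to that medium for the same 24 h. Each group had 3 samples. The labels name no vehicle in the CON group and no pool or number of animals behind a sample.

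Prostaglandins are lipid mediators made on demand from arachidonic acid. Cytosolic phospholipase frees arachidonic acid from membranes, the cyclooxygenases COX-1 (Ptgs1) and COX-2 (Ptgs2) turn it into PGH2, and terminal synthases turn PGH2 into PGE2, prostacyclin and related products. PGE2 acts on the EP receptors, of which EP2 and EP4 raise cAMP, and it is inactivated after uptake into the cell by the dehydrogenase that Hpgd encodes. In cartilage, PGE2 is known as a mediator of inflammation that is raised in osteoarthritis, and COX-2 and the inducible synthase Ptges are known as its cytokine-induced enzymes, while COX-1 is usually described as constitutive.

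Each sample had between 29370025 and 38007486 counted reads. CON sample 1 stood apart from the other CON samples, with chi-square values per degree of freedom of 39.9 and 64.2 against them, where every other pair of replicates lay between 6.47 and 8.2. For each of the 9 genes the log2 fold change without this sample is given as well. All 8 defining markers of chondrocytes were expressed in both groups. Their summed level was lower in RA, at 4940 to 5263 FPKM against 7763 to 9673 in CON (FPKM, counts scaled to gene length and library total), and all 8 were lower by adjusted p, 7 of them as DEGs as defined below. Col2a1 was the most abundant of them, with a log2 fold change of -0.78, from 5420 ± 961 FPKM in CON to 3185 ± 141 in RA. Markers of fibroblasts, perichondrium and synovium summed to 3724 to 4916 FPKM in CON and 4814 to 5069 in RA, with none a DEG. By adjusted p, 1 of the 8 was higher, Pdgfra (log2 fold change 0.44, adjusted p = 0.00155, edgeR). Dcn was the 1 that was lower (-0.41, adjusted p = 0.0378, edgeR). Col1a1 led this list at a mean of 2976 FPKM in CON and 3478 in RA, below the mean of Col2a1 in CON and above it in RA. Macrophage markers summed to 1.27 to 1.65 FPKM in CON and 1.51 to 1.74 in RA, mostly Cd68. The 2 mast cell markers in the files summed to 2.47 to 2.68 and 2.17 to 2.34 FPKM, mostly Kit. Endothelial markers summed to 5.49 to 8.03 and 6.22 to 6.85 FPKM, mostly Egfl7, with Emcn at 0 counts in every sample. Skeletal muscle markers summed to 5.1 to 7.07 and 7.12 to 8 FPKM, mostly Des. None of these last 4 lists held a DEG, but most of their markers were absent or too low to be tested. Tested were 2 of 10 macrophage, 1 of 8 mast cell, 2 of 8 endothelial and 2 of 8 skeletal muscle markers. The part of these shifts in the results below was not tested, and in such bulk samples fewer cells of a type and less RNA per cell cannot be told apart.

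Per length, the 9 genes spanned a wide range of levels, and their order was the same in both groups. Ptges3 was far above the rest, at 137 ± 16.7 FPKM in CON (SD, n = 3), higher than 96.1% of the 13438 genes tested by its mean over all samples. Ptgs1 came next at 17.8 ± 0.359 FPKM in CON. Pla2g4a (8.38 ± 1.02), Ptges2 (7.16 ± 1.28) and Ptgs2 (6.14 ± 0.909) followed, and each of these overlapped its neighbour in CON. Ptges (4.03 ± 0.339) and Hpgd (3.65 ± 0.311) also overlapped in CON. They no longer did so in RA, where Hpgd lay lower and overlapped Ptger2 in its place. The receptors Ptger2 (0.892 ± 0.261 FPKM in CON) and Ptger4 (0.283 ± 0.0707) were the lowest, the latter above only 4.59% of tested genes.

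**Figure D1:**
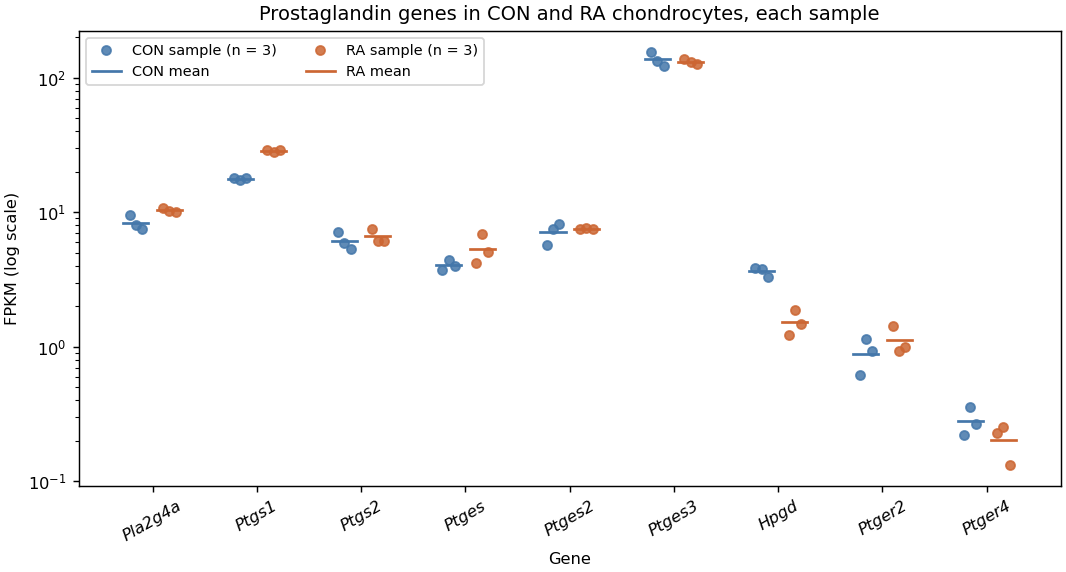
FPKM on a log axis for the 9 prostaglandin genes, with a point for each of the 3 CON (blue) and 3 RA (orange) samples and a bar for each group mean. The RA points of Ptgs1 lie between 27.9 and 29.2, all above CON, those of Hpgd between 1.22 and 1.87, all below CON, and most other genes overlap.

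Of the 9 genes, all of which passed the filter on low counts, 2 were DEGs. A gene counted as a DEG if its log2 fold change (log2FC, given with its standard error, SE) exceeded 0.58 in size and its p in the quasi-likelihood test of edgeR, adjusted by Benjamini-Hochberg, was under 0.05. Ptgs1 was higher and Hpgd lower in RA, and the median log2FC of the set was 0.10. Among all 13438 tested genes, 4.96% were DEGs, 2.67% higher and 2.29% lower, with a median of -0.0057. Because the set was chosen with earlier results known, setting it beside these shares is not an unbiased comparison. The normalized levels of the groups did not overlap for 3 of the 9 genes, Ptgs1, Hpgd and Pla2g4a, where 31.9% of all tested genes showed no overlap, so this share was close to the background.

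**Figure D2:**
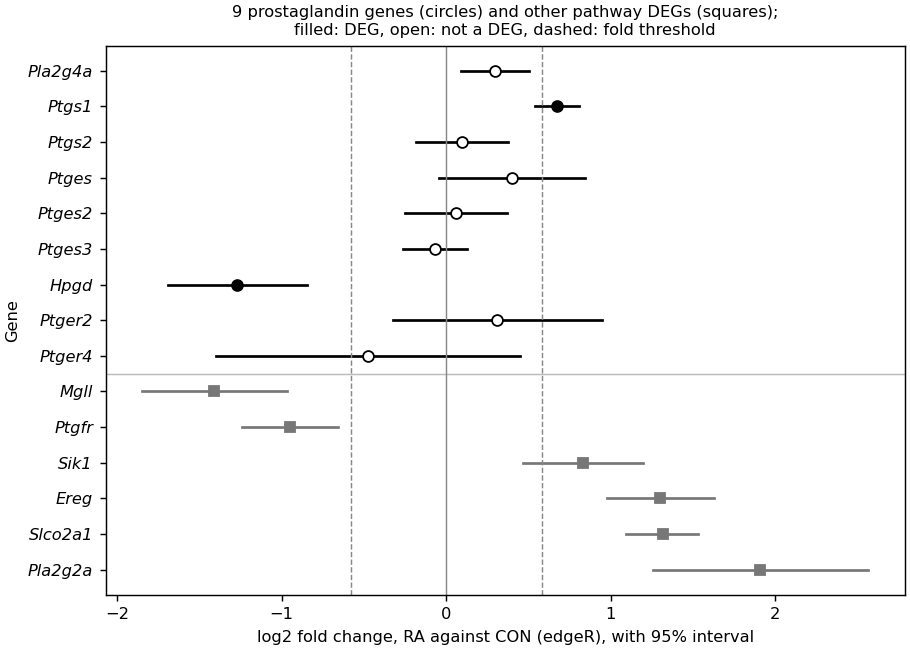
Log2 fold change of RA against CON with its 95% interval from the edgeR fit, for the 9 prostaglandin genes (circles) and the 6 DEGs of the other pathway lists (squares), filled where the gene was a DEG, with dashed lines at the threshold of 0.58. The interval of Ptgs1, 0.54 to 0.81, reaches across the dashed line, that of Hpgd, -1.69 to -0.85, lies beyond it, and those of Ptges, Ptgs2, Ptges2, Ptges3, Ptger2 and Ptger4 include 0.

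Pla2g4a (ENSRNOG00000002657) encodes the cytosolic phospholipase A2 that opens the pathway by releasing arachidonic acid. Its level was 9.51, 8.1 and 7.53 FPKM in CON samples 1, 2 and 3, and 10.8, 10.3 and 10 FPKM in RA samples 1, 2 and 3. All RA samples were above all CON samples, the nearest being CON sample 1. The log2FC was 0.30 (SE 0.0914, 95% interval 0.09 to 0.51), and the adjusted p was 0.086 in edgeR, so it was not a DEG. Without CON sample 1 the log2FC was 0.39 with an adjusted p of 0.000979, still short of the fold threshold. Over all alternatives the adjusted p of Pla2g4a ran from 0.000979 to 0.244.

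Other genes of arachidonate release and reacylation were taken as a list of 31, of which 22 were tested, with a median log2FC of 0.05. Of these, 1 rose and 1 fell as DEGs, where 4.96% of all tested genes were DEGs. Pla2g2a, a secreted phospholipase A2, rose from 0.844, 0.703 and 0.496 FPKM in CON samples 1 to 3 to 2.3, 2.21 and 3.2 FPKM in RA samples 1 to 3. Its log2FC was 1.91 (SE 0.286, adjusted p = 0.00425, edgeR), on 16 to 84 counts per sample. Mgll encodes monoacylglycerol lipase, which frees arachidonic acid from 2-arachidonoylglycerol in some tissues. It fell from 7.39 ± 0.735 to 2.81 ± 0.729 FPKM (n = 3 per group, SD), with a log2FC of -1.41 (SE 0.192, adjusted p = 0.00264, edgeR). Leaving out any of the 6 samples kept both calls. The most abundant gene of the list was Anxa1, which encodes annexin A1, at 585 ± 94.9 FPKM in CON and 633 ± 37.2 in RA, and its groups overlapped. Pla2g2d, another secreted phospholipase, had too few reads to be tested, with 9, 14 and 15 counts in CON and 0, 2 and 0 in RA.

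The pair of cyclooxygenase genes differed in what was measured. Ptgs1 (ENSRNOG00000007415) stood at 18, 17.4 and 18.1 FPKM in CON samples 1 to 3 and at 29.2, 27.9 and 28.9 FPKM in RA samples 1 to 3. The groups lay far apart relative to the spread within them. This was a log2FC of 0.67 (1.59-fold, SE 0.0588, adjusted p = 2.6e-04, edgeR), and it ranged from 0.65 to 0.69 with each sample left out, at 0.68 without CON sample 1. Ptgs2 (ENSRNOG00000002525) stood at 7.14, 5.91 and 5.37 FPKM in CON samples 1 to 3 and at 7.56, 6.15 and 6.13 FPKM in RA samples 1 to 3. The groups overlapped, and in each of them sample 1 was the highest. Its log2FC was 0.10 (SE 0.122, adjusted p = 0.674, edgeR), and the 95% interval of -0.18 to 0.38 left out a change beyond the fold threshold in either direction. Without CON sample 1 the log2FC of Ptgs2 was 0.22, and without RA sample 1 it was -0.0037.

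Because both genes were counted in the same libraries, their ratio was also compared within samples. The log2 ratio of Ptgs1 to Ptgs2 counts was 0.69, 0.92 and 1.11 in CON samples 1 to 3 and 1.30, 1.54 and 1.59 in RA samples 1 to 3. Every RA sample was above every CON sample, with means of 0.90 ± 0.21 and 1.48 ± 0.154 (n = 3 per group, SD). The difference of 0.58 had p = 0.1 in a two-sided exact permutation test, the smallest p that 3 against 3 samples allow, and 0.1 after Benjamini-Hochberg adjustment over the 3 ratios computed. The rise of Ptgs1 was known when this ratio was chosen. With a log2FC of 0.67 for Ptgs1 against 0.10 for Ptgs2, the difference mostly restates that rise and is no separate evidence.

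**Figure D3:**
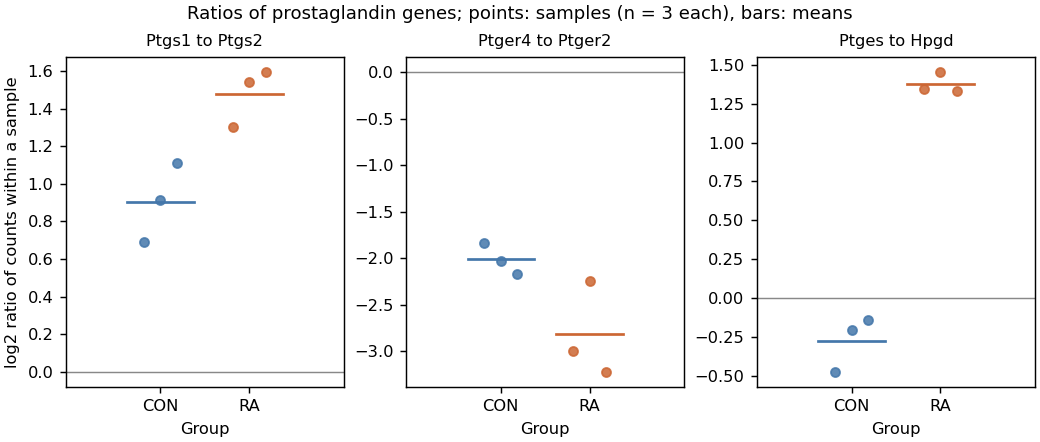
Log2 ratio of the counts of a pair of genes within each sample, for Ptgs1 to Ptgs2, Ptger4 to Ptger2 and Ptges to Hpgd, with points for the 3 CON and 3 RA samples and bars for the means. In each panel the groups do not overlap, and the widest gap is that of Ptges to Hpgd, from a mean of -0.28 in CON to 1.38 in RA.

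The sequences just before the transcription starts of Ptgs1, Ptgs2 and Hpgd are shown because Ptgs1 and Hpgd were the DEGs of the set and Ptgs2 is the cyclooxygenase gene that was not. Each is the 250 bases before the start that RefSeq gives on GRCr8, from 5′ to 3′ on the strand of the gene. They lie at chr3:39981169-39981418 on the plus strand for Ptgs1, chr13:64713813-64714062 on the plus strand for Ptgs2, and chr16:39034832-39035081 on the minus strand for Hpgd. Capitals mark matches, on either strand, to the TATA sequence TATAAA, the GC box GGGCGG, the cAMP response element TGACGTCA, the AP-1 site TGAGTCA, the nuclear receptor hexamer AGGTCA, or its variant AGTTCA.
Ptgs1: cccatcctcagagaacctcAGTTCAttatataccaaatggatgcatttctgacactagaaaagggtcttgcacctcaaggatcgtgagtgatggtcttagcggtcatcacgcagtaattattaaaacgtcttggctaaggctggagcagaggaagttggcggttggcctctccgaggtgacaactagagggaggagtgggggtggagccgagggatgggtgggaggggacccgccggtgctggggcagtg
Ptgs2: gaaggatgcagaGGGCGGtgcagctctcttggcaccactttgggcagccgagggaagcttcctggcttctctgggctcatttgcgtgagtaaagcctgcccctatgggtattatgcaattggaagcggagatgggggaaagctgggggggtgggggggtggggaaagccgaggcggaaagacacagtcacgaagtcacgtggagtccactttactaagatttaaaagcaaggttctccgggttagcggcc
Hpgd: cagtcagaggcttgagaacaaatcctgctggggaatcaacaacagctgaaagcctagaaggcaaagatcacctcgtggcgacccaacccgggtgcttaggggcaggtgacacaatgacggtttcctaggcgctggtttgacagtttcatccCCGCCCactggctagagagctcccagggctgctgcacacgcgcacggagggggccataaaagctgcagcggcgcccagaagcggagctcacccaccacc

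Each of these 3 windows held 1 match, so none overlapped. Ptgs1 had AGTTCA starting 231 bases before its start, which 12.2% of 33469 rat windows of this length also hold. Ptgs2 had GGGCGG at 238 bases, and Hpgd had it on the opposite strand at 99 bases, a motif present in 30.5% of windows. The TATA sequence, the cAMP response element, the AP-1 site and the hexamer AGGTCA had no match in these 3 windows, and 12.9%, 1.59%, 4.05% and 14.1% of all windows hold them. Of the 10 genes, 8 had an entry, and among the other 5 of these Pla2g4a held TATAAA and AGGTCA, Ptges 1 and Ptges3 4 copies of GGGCGG, and Ptger2 and Ptger4 no match. A match of letters is a description and not a binding site.

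Terminal synthases turn PGH2 into PGE2, and none of the 3 genes was a DEG. Ptges (ENSRNOG00000006320), the gene of the inducible microsomal PGE synthase, stood at 3.71, 4.39 and 3.99 FPKM in CON samples 1 to 3 and at 4.19, 6.87 and 5.02 FPKM in RA samples 1 to 3. RA sample 2 was the highest, and RA sample 1 lay within CON. The log2FC was 0.40 (SE 0.194, adjusted p = 0.255, edgeR), with a 95% interval of -0.04 to 0.84 that held both 0 and values past the fold threshold. Without RA sample 2 it was 0.18, and without CON sample 1 it was 0.34.

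Ptges2 (ENSRNOG00000014050) encodes a membrane-associated PGE synthase. Its level was 5.72, 7.57 and 8.19 FPKM in CON samples 1 to 3 and 7.46, 7.62 and 7.53 FPKM in RA samples 1 to 3. All RA samples lay within the range of CON. The log2FC was 0.06 (SE 0.135, adjusted p = 0.829, edgeR), and -0.08 without CON sample 1. Ptges3 (ENSRNOG00000002642) encodes p23, a cochaperone of HSP90 that also has PGE synthase activity. It had 155, 133 and 123 FPKM in CON samples 1 to 3 and 137, 131 and 127 FPKM in RA samples 1 to 3, with overlapping groups and CON sample 1 the highest. Its log2FC of -0.07 (95% interval -0.26 to 0.13) turned to 0.03 without CON sample 1, and whether reads from similar gene copies were counted on Ptges3 is not known.

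Of 7 further prostanoid synthase and reductase genes, 4 were tested, none was a DEG, and their median log2FC was 0.05. The most abundant was Ptgds, the lipocalin-type PGD synthase, at 126 ± 20.5 FPKM in CON and 107 ± 6.84 in RA (n = 3 per group, SD), a log2FC of -0.25 (adjusted p = 0.243, edgeR). By contrast the hematopoietic PGD synthase gene Hpgds had at most 1 count in any sample. Tbxas1, the thromboxane synthase gene, had 2 counts in CON sample 1 and 0 in the other samples.

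Hpgd (ENSRNOG00000010610) encodes 15-hydroxyprostaglandin dehydrogenase, the enzyme that inactivates PGE2, and showed the largest change of the 9 genes. Its level was 3.86, 3.79 and 3.29 FPKM in CON samples 1 to 3 and 1.22, 1.87 and 1.48 FPKM in RA samples 1 to 3. The lowest CON sample was well above the highest RA sample. Between 192 and 210 reads were counted in CON and between 61 and 92 in RA. The log2FC was -1.27 (0.415 of the CON level, SE 0.183, adjusted p = 0.00359, edgeR). It ranged from -1.44 without RA sample 2 to -1.13 without RA sample 1, and was -1.23 without CON sample 1.

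The log2 ratio of Ptges to Hpgd counts, the synthase against the dehydrogenase, was -0.48, -0.21 and -0.14 in CON samples 1 to 3 and 1.35, 1.45 and 1.34 in RA samples 1 to 3. Every RA sample was above every CON sample. The counts are not scaled to gene length, so the sign of this ratio does not rank the genes, and in FPKM Ptges was already above Hpgd in CON samples 2 and 3. The difference between the means was 1.66, with p = 0.1 in the two-sided exact permutation test, the smallest possible, and 0.1 after adjustment over the 3 ratios. The fall of Hpgd was known when this ratio was chosen, and with a log2FC of -1.27 for Hpgd against 0.40 for Ptges, which was not a DEG, the difference mostly restates that fall and is no separate evidence.

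Transport and reduction of prostaglandins were described by a list of 6 genes, of which 5 were tested, with a median log2FC of -0.003. Of the 5, 1 was a DEG, where 4.96% of all tested genes were. The DEG was Slco2a1, the gene of the prostaglandin transporter that carries PGE2 into cells. It rose from 2.26, 2.24 and 2.61 FPKM in CON samples 1 to 3 to 6.03, 5.94 and 5.93 FPKM in RA samples 1 to 3. The groups were far apart, with a log2FC of 1.31 (2.49-fold, SE 0.0954, adjusted p = 1.13e-04, edgeR), and the call held in each of the 6 fits without a sample. Ptgr1, a prostaglandin reductase gene and the most abundant of the list, was at 54.2 ± 4.82 FPKM in CON and 52 ± 1.72 in RA (n = 3 per group, SD). The uptake gene was higher and the dehydrogenase gene Hpgd lower in the same RA samples.

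Ptger2 and Ptger4 encode EP2 and EP4, the E receptors that couple to Gs and raise cAMP, and both were near the lower end of what was tested. Ptger2 (ENSRNOG00000050968) had 37, 67 and 69 counts in CON samples 1 to 3 and 83, 54 and 60 in RA samples 1 to 3. The groups overlapped, with CON sample 1 the lowest and RA sample 1 the highest. Its log2FC was 0.31 (SE 0.278, adjusted p = 0.538, edgeR), and 0.11 without CON sample 1. Leaving out the other samples moved it between 0.11 without RA sample 1 and 0.51 without CON sample 2. Ptger4 (ENSRNOG00000013240) had 10, 16 and 15 counts in CON samples 1 to 3 and 10, 11 and 6 in RA samples 1 to 3. Its log2FC of -0.48 had a 95% interval of -1.40 to 0.45 (adjusted p = 0.517, edgeR), which leaves room for a fall past the fold threshold but not for a rise past it. Leaving out a sample moved it between -0.24 without RA sample 3 and -0.66 without RA sample 2, with -0.28 without CON sample 2 and -0.62 without CON sample 1.

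The log2 ratio of Ptger4 to Ptger2 counts was -1.84, -2.03 and -2.17 in CON samples 1 to 3 and -2.99, -2.25 and -3.22 in RA samples 1 to 3. The groups did not overlap, but RA sample 2 lay close to CON sample 3. The difference of -0.81 had an exact two-sided permutation p of 0.1, the smallest possible, and 0.1 after adjustment over the 3 ratios. It rests on 6 to 16 counts of Ptger4, and with 5 in place of 0.5 added to each count it was -0.62 with an exact permutation p of 0.2.

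Of 7 other prostanoid receptor genes, 4 were tested, with a median log2FC of -0.14. Of the 4, 1 was a DEG, where 4.96% of all tested genes were. Ptgfr, the gene of the PGF2α receptor, fell from 2.89, 2.74 and 2.64 FPKM in CON samples 1 to 3 to 1.34, 1.4 and 1.58 FPKM in RA samples 1 to 3. This was a log2FC of -0.95 (SE 0.127, adjusted p = 0.0024, edgeR), with the call kept in all 6 fits without a sample. Ptger1, the gene of EP1, was the most abundant receptor gene of the list, at 9.52 ± 1.55 FPKM in CON and 9.39 ± 0.594 in RA, and its groups overlapped. At these levels it stood above Ptger2 and Ptger4 in every sample. Ptger3, the gene of EP3, was too low to be tested, with 2, 5 and 16 counts in CON samples 1 to 3 and 0, 0 and 1 in RA samples 1 to 3.

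**Figure D4:**
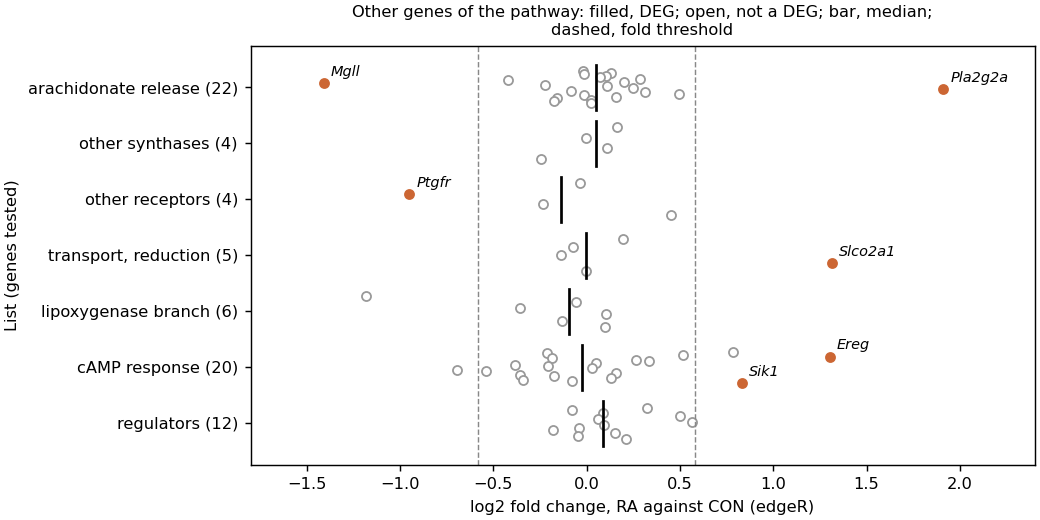
Log2 fold change of RA against CON for the tested genes of the 7 other lists of the pathway, 1 point per gene, filled and named where the gene was a DEG, with a bar at each list's median and dashed lines at the threshold of 0.58. Most points lie between the dashed lines, and the 6 named genes are Mgll and Ptgfr on the lower side and Sik1, Ereg, Slco2a1 and Pla2g2a on the higher side.

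Genes known to respond to cAMP, the second messenger of EP2 and EP4, were described by a list that left out Ptgs2 itself and held 21 genes. Of the 20 tested, 2 were DEGs, both higher, where 4.96% of all tested genes were DEGs and 2.67% were higher DEGs. The median log2FC of the list was -0.02. Ereg, the gene of the growth factor epiregulin, rose from 1.58 ± 0.136 to 3.93 ± 0.415 FPKM (n = 3 per group, SD), with a log2FC of 1.30 (adjusted p = 8.48e-04, edgeR). Sik1, a salt-inducible kinase gene, rose from 1.84 ± 0.377 to 3.32 ± 0.302 FPKM, with a log2FC of 0.83 (adjusted p = 0.0129, edgeR). Sik1 was not a DEG without RA sample 1 (0.84, adjusted p = 0.0551) or RA sample 3 (0.76, adjusted p = 0.0677), while Ereg kept its call in all 6 fits. Without CON sample 1 the log2FC of Sik1 was 0.68. The phosphatase gene Dusp1, the most abundant of the list, went from 19.4 ± 0.975 to 28 ± 0.996 FPKM, and its log2FC of 0.51 passed the adjusted p threshold (0.00182, edgeR) but not that of the fold. In the other direction, the phosphodiesterase gene Pde3b went from 2.97 ± 0.089 to 2.06 ± 0.29 FPKM, with a log2FC of -0.54 that also passed only the adjusted p threshold (0.0243, edgeR). The orphan receptor genes Nr4a1, Nr4a2 and Nr4a3 had log2FCs of 0.05, -0.38 and -0.21, and none was a DEG.

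None of the 12 tested regulators of Ptgs2 and Ptges was a DEG, and their median log2FC was 0.09. The interleukin-1 receptor gene Il1r1 came closest to the threshold, at 7.46 ± 0.463 FPKM in CON and 11.1 ± 0.198 in RA (n = 3 per group, SD), a log2FC of 0.57 (adjusted p = 0.00125, edgeR). Egr1, a transcription factor known to induce Ptges, had 0.50 (adjusted p = 0.0157, edgeR). The TNF receptor gene Tnfrsf1a was the most abundant of the list, at 110.2 ± 3.88 and 107.8 ± 2.47 FPKM. Transcripts of the cytokine Il1b were all but absent from the reads, with 1 count in RA sample 3 and 0 in the other samples. In the lipoxygenase and epoxygenase branch, the other fate of arachidonic acid, 6 of 19 genes were tested, none was a DEG and the median was -0.09. Lta4h, the leukotriene A4 hydrolase gene, led this branch at 38.2 ± 1.9 FPKM in CON and 41.3 ± 0.927 in RA, and Alox5, the 5-lipoxygenase gene, had 0 counts in every sample. Over the 7 lists together, 6 of 73 tested genes were DEGs, or 8.22%, where 4.96% of all tested genes were, and the median log2FC was 0.03. Without CON sample 1 there were 7, of which 4 were higher and 3 lower. By adjusted p alone 11 of the 73 passed, 8 higher and 3 lower, where 9.82% of all tested genes did, and by unadjusted p with the fold threshold 9 passed, where 7.57% of all did.

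Across the 6 samples, the genes whose normalized level followed that of Ptgs1 most closely were Nid1, Sh3pxd2b and Hsd11b1, each with a Pearson r of 0.999. Their log2FCs were 0.74, 0.51 and 2.57. For Hpgd they were Xaf1, AABR07001432.1 and Serinc5, with r of 0.994, 0.994 and 0.992 and log2FCs of -0.64, -1.33 and -0.20. These correlations were taken over 11342 genes with a mean of at least 1 FPKM and share the group difference and the libraries, and 405 genes for Ptgs1 and 238 for Hpgd had r above 0.95.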

How the data were processed

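Poly(A) RNA of 3 CON and 3 RA samples was sequenced, and the authors deposited 1 whole-number read count and 1 FPKM value per gene and sample for 18923 genes. The submitters' processing notes name HISAT2, HTSeq 0.13.5 and the rat build Rnor_6.0; annotation, strand setting and the treatment of reads shared by similar genes are not given in the sources used here, so genes with near-identical copies or an antisense partner are uncertain. The deposited FPKM scale each count by gene length and by the total count of the same sample only, and serve here for levels. Total counts ran from 29370025 to 38007486 (median 30439666), so that 3 counts, the most a count of 0 allows, correspond to 0.0789 to 0.102 CPM, counting error only. Whether the samples came from separate animals is not stated beyond their independence, so p-values measure the spread between these samples.

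Genes were filtered with filterByExpr (minimum count 10), normalized by TMM and tested with the quasi-likelihood test of edgeR 4.0.16 in R 4.3.3 over all 6 samples without covariates, p adjusted by Benjamini-Hochberg over all 13438 tested genes. DEGs were called at a log2 fold change beyond 0.58 with an adjusted p under 0.05. Standard errors were derived from the F statistic. Ratios of 2 genes used counts plus 0.5 and an exact permutation test (scipy 1.17.1). The test was checked on simulated counts. The members, the 7 other pathway lists, the 6 marker lists and the tests were chosen with earlier results of these data known. Named genes were all members, the DEGs and the most abundant gene of each other list, and, for each member DEG, the 3 genes most correlated with it. Other genes were named after their values were seen. Alternatives were a replicate block, RLE factors, library totals, DESeq2 1.42.0, limma 3.58.1 on log2(FPKM + 0.1) and log2(FPKM + 1), 2 other filters, 2 other thresholds and each sample left out. Upstream sequences are those of RefSeq on GRCr8.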

Additional observations from a re-analysis of the deposited data

How the results depend on the processing

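Of the members, Ptgs1 and Hpgd were DEGs under every alternative run, 2 genes each time, including RLE factors, library totals, DESeq2, both limma fits, both other filters, both other thresholds and each of the 6 fits without 1 sample. With the replicate number as a block the member count was also 2 and that of the other pathway genes also 6. The block changed no DEG call among these genes. Whether the numbers pair the samples is not known. Deviations of same-numbered samples correlated between -0.014 and 0.161, the latter for CON and RA samples 1. Of the 6 samples, 3 correlated best with their own number, and with 3 samples per group this check cannot decide the question. Under the block, Pla2g4a reached an adjusted p of 0.038 (edgeR) at a log2 fold change of 0.30, still no DEG. For the 3 ratios, the mean differences within the replicate block (0.58, -0.81 and 1.66) equal the unpaired ones by arithmetic, which is no check. Their exact sign-flip p was 0.25 each, the smallest that 3 pairs allow. With counts plus 5 the exact permutation p of Ptger4 to Ptger2 went from 0.1 to 0.2.

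The other pathway genes gave 11 DEGs in place of 6 once the fold-change threshold was dropped (9.82% of all tested genes then passed in place of 4.96%), 9 with unadjusted p and the fold threshold, and between 5 and 8 with each sample left out. The sign turned for Ptgs2 without RA sample 1 (log2 fold change -0.0037), for Ptges2 without CON sample 1 (-0.082) and for Ptges3 without CON sample 1 (0.029), all 3 close to 0 with all samples. With each sample left out they ran from -0.0037 to 0.22, from -0.082 to 0.18 and from -0.13 to 0.03. Ptger2 and Ptger4 could not be fitted under the filter of FPKM of at least 1. With each sample left out, the differences in ratio ran from 0.47 to 0.68 for Ptgs1 to Ptgs2, from -1.09 to -0.61 for Ptger4 to Ptger2 and from 1.56 to 1.72 for Ptges to Hpgd. Depth limits the E receptors most, with 37 to 83 counts of Ptger2 and 6 to 16 of Ptger4 per sample.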
